A study of Mus musculus with 24 samples.

Results

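A set of genes grouped as luminal lineage transcription factors was followed across 24 mammary glands. The set is Gata3, Foxa1, Tbx3, Cited1, Elf5, Ehf, Elf3 and Satb1, and the grouping was given beforehand and not drawn from these levels. These 8 genes were taken by the gene name that the array design gives each probe, and every such probe that is no control was kept. They are measured by 9 of the 55681 probes and are 8 of the 34797 gene names on the array. Each gene but Ehf has 1 probe, and Ehf has 2.

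RNA of whole mammary gland from female mice was hybridised in a single colour, each mouse on its own array. The mice were BALB/c, a common inbred laboratory strain, or SPRET/EiJ, inbred from wild mice of the species Mus spretus, and were exposed at 8-9 weeks of age. The irradiated mice received a whole-body dose of 10 cGy of X-rays, low-dose ionizing radiation (LDIR), and the sham mice received none. BALB/c glands were collected 2, 4 and 8 weeks later and SPRET/EiJ glands 4 weeks later, with 3 mice (A, B and C) in each of the 8 groups.

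Luminal cells line the ducts and alveoli of the mammary gland and are enclosed by a layer of basal, contractile cells. They fall into hormone-sensing cells, which carry the estrogen and progesterone receptors and pass the hormonal signal to their neighbours, and alveolar progenitors, which make milk when the gland is called on to lactate. Gata3, Foxa1, Tbx3 and Cited1 are known for their part in the hormone-sensing cells, and the ETS factors Elf5, Ehf and Elf3 for their part in alveolar and other secretory or barrier epithelia. Satb1, a chromatin organiser, is best known from T lymphocytes.

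Values are log2 intensities relative to the 75th percentile of the same array. A level of 0 therefore equals that percentile, and a difference of 1 is 2-fold. Differently built probes do not compare, so levels are set beside each other only for the same probe. On each of the 24 arrays all 9 probes were well above background, and between 57.2% and 72.7% of all probes on an array were. The p-values measure the spread between the 3 mice of a group, and 3 mice limit the precision of every comparison. The stage of the estrous cycle was not used here, and the arrays lay on 3 slides of 8. There were 3 arrays that stood apart in markers of T lymphocytes. BALB/c 8-week sham A, BALB/c 8-week LDIR B and SPRET/EiJ LDIR A had a summed level of 6.97, 7.46 and 7.12 over 7 such markers. The other 21 arrays were at 4.57 or below. A summed level is the log2 of the sum of the markers' levels on the linear scale, so the brightest marker weighs most. The defining markers of mammary epithelium were present, with all 10 luminal and all 10 basal markers of the lists used well above background on every array.

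The promoters below are shown because Foxa1 and Elf5 stand for the hormone-sensing and the alveolar factors, and because Elf5 has more than 1 start site. They are the 250 bases before the annotated start, from RefSeq on build GRCm38.p6, written in the direction of transcription. Capitals mark the letters of a motif found by a search of both strands. Foxa1 lies at chr12:57546112-57546361 on the minus strand, and Elf5 at chr2:103411848-103412097 and chr2:103423818-103424067 on the plus strand.
Foxa1: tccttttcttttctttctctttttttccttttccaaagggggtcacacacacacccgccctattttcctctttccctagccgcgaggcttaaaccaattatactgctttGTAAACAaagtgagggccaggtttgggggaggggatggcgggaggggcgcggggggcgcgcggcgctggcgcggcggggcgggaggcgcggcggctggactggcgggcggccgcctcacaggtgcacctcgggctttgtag
Elf5, first start: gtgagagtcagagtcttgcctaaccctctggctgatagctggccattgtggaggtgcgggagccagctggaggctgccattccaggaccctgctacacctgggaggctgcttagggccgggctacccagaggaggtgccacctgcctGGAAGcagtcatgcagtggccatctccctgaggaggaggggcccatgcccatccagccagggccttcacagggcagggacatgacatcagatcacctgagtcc
Elf5, second start: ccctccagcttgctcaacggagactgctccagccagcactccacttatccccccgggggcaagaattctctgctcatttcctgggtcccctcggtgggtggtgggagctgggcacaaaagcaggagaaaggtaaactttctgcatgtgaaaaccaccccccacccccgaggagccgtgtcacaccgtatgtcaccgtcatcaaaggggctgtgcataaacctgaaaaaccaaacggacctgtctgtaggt
The capitals in Foxa1 are the forkhead motif TGTTTAC read on the opposite strand, 141 to 135 bases before the start. Those in the first Elf5 window are the core of the ETS motif, GGAAG, 103 to 99 bases before the start, and the second Elf5 window holds none of the motifs searched. Windows were given for 6 of the 8 genes, 13 in all, and not for Ehf and Tbx3. GGAAG was in 7 of these 13 windows and in 64.1% of 32851 mouse windows of the same length. TGTTTAC was in 1 of 13 windows and in 3.17% of all. The GATA motif AGATAA (9.99% of all windows) and the STAT motif TTCNNNGAA (7.02%) were in none of the 13. These are counts of letters and not of bound sites.

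The probes lie, in the array design's mm9 coordinates, at chr2:9779551-9779610 (Gata3), chr12:58641764-58641823 (Foxa1), chr5:120134511-120134570 (Tbx3), chrX:99442776-99442835 (Cited1), chr2:103290958-103291017 (Elf5), chr1:137150328-137150387 (Elf3) and chr17:51879137-51879196 (Satb1). The brighter Ehf probe is at chr2:103106827-103106886 and the other at chr2:103114043-103114102. Tbx3 and Elf5 are on the plus strand and the rest on the minus strand. Whether a probe lies in a coding exon or a UTR was not analysed here. Elf5 and Ehf are neighbouring protein-coding genes on chromosome 2 in RefSeq's GRCm38.p6 annotation.

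**Figure D1:**
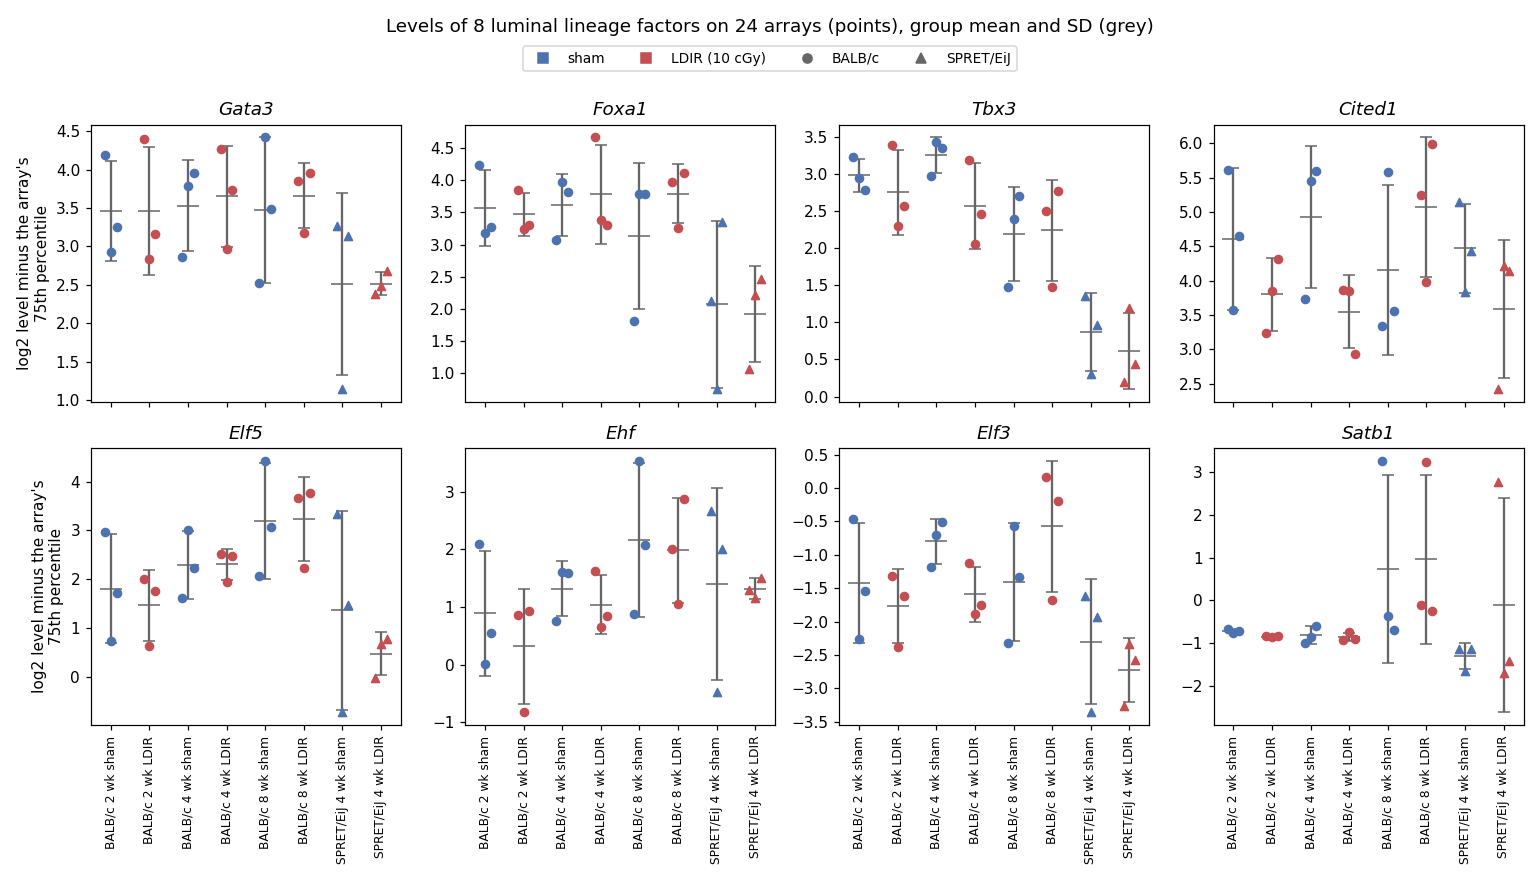
Level of each of the 8 factors on the 24 arrays (vertical axis, log2 intensity minus the array's 75th percentile) in the 8 groups (horizontal axis). Points are mice, blue for sham and red for LDIR, circles for BALB/c and triangles for SPRET/EiJ, and grey marks give the mean and SD of 3 mice. The 6 SPRET/EiJ arrays lie below all 18 BALB/c arrays for Tbx3, and 3 arrays stand far above the rest for Satb1.

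Gata3, the zinc finger factor that maintains luminal identity, had a level of 2.86, 3.79 and 3.96 in the A, B and C mice of the BALB/c 4-week sham group and of 4.27, 2.96 and 3.73 in the irradiated mice of that time. In SPRET/EiJ it was 3.27, 1.14 and 3.14 in sham and 2.38, 2.48 and 2.68 after LDIR. The means of the 6 BALB/c groups spanned only 3.46 to 3.66, and the mean of both SPRET/EiJ groups was 2.51. Sham mouse B of SPRET/EiJ was far below its group.

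Foxa1, the forkhead pioneer factor that opens chromatin for the estrogen receptor, was 3.07, 3.97 and 3.82 in BALB/c 4-week sham and 4.67, 3.38 and 3.30 after LDIR. The SPRET/EiJ mice had 2.12, 0.75 and 3.35 in sham and 1.07, 2.22 and 2.47 after LDIR. The ranges overlapped in sham tissue, through SPRET/EiJ mouse C, and did not overlap in irradiated tissue. Over all times BALB/c ran from 1.81, in 8-week sham mouse A, to 4.67.

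Tbx3, a T-box repressor needed for the mammary placodes and present in hormone-sensing cells, was 2.97, 3.43 and 3.35 in BALB/c 4-week sham and 3.18, 2.05 and 2.46 after LDIR. In SPRET/EiJ it was 1.35, 0.31 and 0.96 in sham and 0.20, 1.19 and 0.44 after LDIR. Every one of the 18 BALB/c arrays (1.47 to 3.43) was above every one of the 6 SPRET/EiJ arrays (0.20 to 1.35). The pooled SD within groups was 0.52, the smallest of the 8 genes.

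Cited1, a transcriptional coregulator that binds no DNA itself and acts with the estrogen receptor, was 3.74, 5.45 and 5.60 in BALB/c 4-week sham and 3.86, 3.85 and 2.93 after LDIR. SPRET/EiJ had 5.14, 3.84 and 4.43 in sham and 2.42, 4.21 and 4.14 after LDIR. Low and high mice occurred in both strains, and the strains overlapped widely (2.93 to 5.99 over BALB/c, 2.42 to 5.14 over SPRET/EiJ).

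Elf5, the ETS factor that directs the alveolar fate, was 1.62, 3.02 and 2.24 in BALB/c 4-week sham and 2.51, 1.95 and 2.48 after LDIR. In SPRET/EiJ it was 3.34, -0.72 and 1.48 in sham and -0.02, 0.68 and 0.79 after LDIR. The sham mice of SPRET/EiJ thus spanned 4.06 on the log2 scale and enclosed all 3 BALB/c mice, whereas the irradiated mice of the strains did not overlap. In BALB/c the group mean was 1.81 ± 1.11 (SD, n = 3) in 2-week sham and 3.19 ± 1.19 in 8-week sham.

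Ehf, an ETS factor of epithelia, was at its brighter probe 0.76, 1.61 and 1.59 in BALB/c 4-week sham and 1.62, 0.65 and 0.84 after LDIR. The values in SPRET/EiJ were 2.66, -0.48 and 2.01 in sham and 1.29, 1.16 and 1.51 after LDIR. These ranges overlapped throughout. The other Ehf probe had the same sign of difference as the brighter one in 9 of the 10 comparisons made, the exception being the strain difference in sham tissue (-0.08 and 0.29).

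Elf3, an ETS factor of barrier epithelia, was -1.18, -0.71 and -0.51 in BALB/c 4-week sham and -1.12, -1.89 and -1.75 after LDIR. In SPRET/EiJ it was -1.62, -3.36 and -1.93 in sham and -3.27, -2.33 and -2.58 after LDIR. At 4 weeks the strains did not overlap in either treatment.

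Satb1 stayed between -1.71 and -0.11 on 21 of the 24 arrays and was 3.28, 3.24 and 2.78 on the remaining 3, which were BALB/c 8-week sham A, BALB/c 8-week LDIR B and SPRET/EiJ LDIR A. These are the arrays that stood apart in the T lymphocyte markers. The summed level of 3 B lymphocyte markers was highest on them too (5.33, 5.60 and 5.03, against 1.12 to 3.29 elsewhere). The group means of Satb1 at 8 weeks and in irradiated SPRET/EiJ therefore each rest on 1 mouse. The same mice were low in the other factors, since each of both BALB/c mice was the lowest of its group for all 7 others, and SPRET/EiJ LDIR A for all but Ehf. Their summed luminal marker levels of 7.75, 7.17 and 5.31 were also the lowest of their groups. The part of lymphocytes in the level of Satb1 was not tested.

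**Figure D2:**
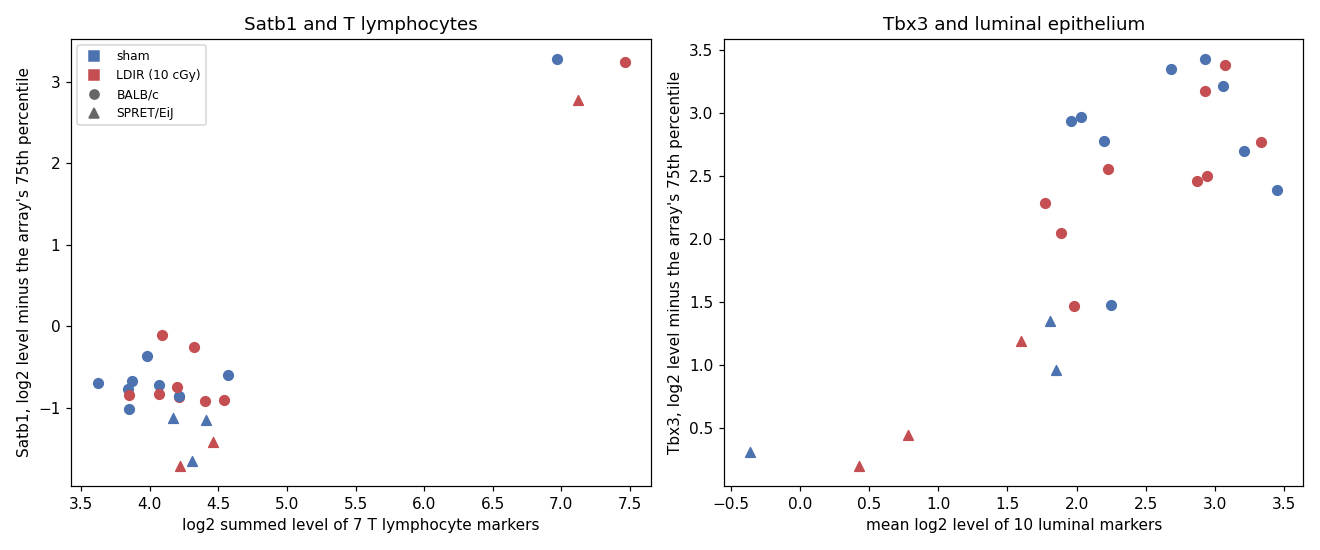
Left, level of Satb1 (vertical axis, log2) against the summed level of 7 T lymphocyte markers (horizontal axis, log2) on each of 24 arrays. Right, level of Tbx3 against the mean level of 10 luminal markers. Colours and shapes are treatment and strain. On the left 3 arrays lie at a summed level from 6.97 to 7.46 and all others at 4.57 or below. On the right the SPRET/EiJ arrays lie low on both axes.

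Placed in the order of their means, the 8 groups of each gene gave 56 neighbouring pairs, and in 53 of them the ranges of 3 mice overlapped. Neighbours in this order are the groups closest in mean, which favours overlap. The share over all probes is not given here, so the count is a description only. The pairs without overlap were BALB/c 2-week sham above irradiated SPRET/EiJ for Gata3, BALB/c 8-week sham above SPRET/EiJ sham for Tbx3 and BALB/c 4-week LDIR above SPRET/EiJ sham for Satb1. A single mouse often held the extremes of several genes. SPRET/EiJ sham B was the lowest of the 24 for Gata3, Foxa1, Elf5 and Elf3, and BALB/c 8-week sham B was the highest for Gata3, Elf5 and Ehf.

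Between strains in sham tissue at 4 weeks, the question being which factors differ at baseline, Tbx3 was 5.20-fold higher in BALB/c. Its mean was 3.25 ± 0.24 (SD, n = 3) in BALB/c and 0.87 ± 0.53 in SPRET/EiJ, a difference of 2.38 (SE 0.30, adjusted p = 0.00355 with limma and Benjamini-Hochberg adjustment over all probes). It was the only one of the 8 to pass the thresholds of the methods between strains, an unadjusted p under 0.001 and a change over 1.5-fold, which 8.89% of all probes passed. Of all probes, 5.36% passed and were higher in BALB/c. After adjustment it was also the only one, against 18.8% of all probes. The groups of Elf3 and Satb1 did not overlap either, so 3 of 8 genes had no overlap against 38% of all probes.

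The other factors gave no call in sham tissue. The difference was 1.51 (SE 0.47, adjusted p = 0.0771 with limma) for Elf3 and 1.55 (SE 0.65, adjusted p = 0.161) for Foxa1. It was 1.02 (SE 0.63) for Gata3, 0.93 (SE 1.00) for Elf5, 0.49 (SE 0.22) for Satb1 and 0.46 (SE 0.58) for Cited1. For Ehf it was -0.08 (SE 0.80). Thus 7 of 8 were above 0, as were 44.4% of all probes, with a median of 0.97 against -0.08 over all probes.

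Luminal markers lay in the same direction. All 10 luminal keratin, claudin and adhesion markers were above 0 in the sham comparison (median 1.56), and none passed the thresholds. Their summed level was 7.24 to 8.27 in BALB/c sham and 4.69 to 7.12 in SPRET/EiJ sham, without overlap. With the mean level of these markers on each array subtracted, the Tbx3 difference was 0.93 (SE 0.87, adjusted p = 0.352 with limma), and the call was lost. Other markers differed between the sham groups too. Past the unadjusted threshold, Acta2 (3.68, SE 0.27) and Krt17 (3.11, SE 0.27) of the basal list and Plin1 (3.84, SE 0.44) of white adipocytes were higher in BALB/c. Cd79a (-1.31, SE 0.19) of B lymphocytes was lower. Over the whole lists, 7 of 10 basal markers were above 0 (median 0.39) and 4 of 6 white adipocyte markers (median 0.22). Of 3 B lymphocyte markers 1 was above 0 (median -0.03). The part of these in the level of Tbx3 was not tested. In bulk tissue, fewer luminal cells and less RNA in each luminal cell cannot be told apart. Sham arrays of the strains lay on different slides. With slide in a fit of all 24 arrays the Tbx3 difference was 2.10 (SE 0.89, adjusted p = 0.273 with limma), and without BALB/c sham B or sham C it was 2.29 and 2.33, past the adjusted but not the unadjusted threshold. The probes were designed on the laboratory mouse, and an effect of Mus spretus sequence on hybridisation was not tested.

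In irradiated tissue at 4 weeks the strains differed in Elf5, which was 2.31 ± 0.32 (SD, n = 3) in BALB/c and 0.48 ± 0.44 in SPRET/EiJ, or 3.55-fold higher in BALB/c (difference 1.83, SE 0.31, adjusted p = 0.0145 with limma). It alone passed both thresholds, against 5.67% of all probes, and 3.78% of all probes passed and were higher in BALB/c. Tbx3 was also higher in BALB/c after adjustment (1.95, SE 0.40, adjusted p = 0.0259), as were 11.1% of all probes in either direction, and its unadjusted p of 0.00192 from limma missed the methods' threshold. Foxa1 differed by 1.86 (SE 0.52, adjusted p = 0.0696), Gata3 by 1.14 (SE 0.36, adjusted p = 0.101) and Elf3 by 1.14 (SE 0.34, adjusted p = 0.0891). These 5 factors had no overlap between strains, against 33.4% of all probes. Cited1, Ehf and Satb1 had differences of -0.05 (SE 0.55), -0.28 (SE 0.31) and -0.74 (SE 1.14). Without SPRET/EiJ mouse A, which had the high lymphocyte markers, the Satb1 difference turned to 0.71 (SE 0.18, adjusted p = 0.0549 with limma).

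Here too the luminal markers were above 0 in 10 of 10 cases (median 1.65). Krt18, Cdh1, Cldn3 and Muc1 passed the adjusted threshold, against 11.1% of all probes in either direction, and no luminal marker passed the methods' thresholds. Their summed level was 7.23 to 8.57 in BALB/c and 5.31 to 6.65 in SPRET/EiJ. With their mean subtracted, Elf5 differed by 0.20 (SE 0.69) and Tbx3 by 0.32, whereas Satb1 differed by -2.37 (SE 0.69, adjusted p = 0.00396 with limma), a value that includes the high level of SPRET/EiJ mouse A. Other lists differed too. Past the methods' thresholds, 1 basal and 1 white adipocyte marker were higher in BALB/c and 1 B lymphocyte marker was lower. Over the whole lists, 6 of 10 basal markers (median 0.25) and 4 of 6 white adipocyte markers (median 0.48) were above 0. Of 3 B lymphocyte markers 0 were (median -1.74). The BALB/c arrays of this comparison lay on 1 slide and the SPRET/EiJ arrays on another. With slide in a fit of all 24 arrays, Elf5 differed by 1.17 (SE 1.53, adjusted p = 0.899 with limma). The Elf5 call at the unadjusted threshold was lost when any 1 of the 6 arrays was left out, with a difference of 1.58 to 2.01.

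The strain differences in sham and in irradiated tissue share no array. The difference between them, the interaction of strain and LDIR, passed the thresholds for none of the 8 factors with limma (0 at an unadjusted p under 0.05, which 3.6% of all probes reached, and 3.59% passed both thresholds). It was 0.90 (SE 1.11) for Elf5 and -0.43 (SE 0.52) for Tbx3. The different calls in the 2 tissues are therefore not shown to differ. Without SPRET/EiJ sham B the interaction of Elf5 was 1.95 (SE 0.75, unadjusted p = 0.0261, adjusted p = 1 with limma).

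**Figure D3:**
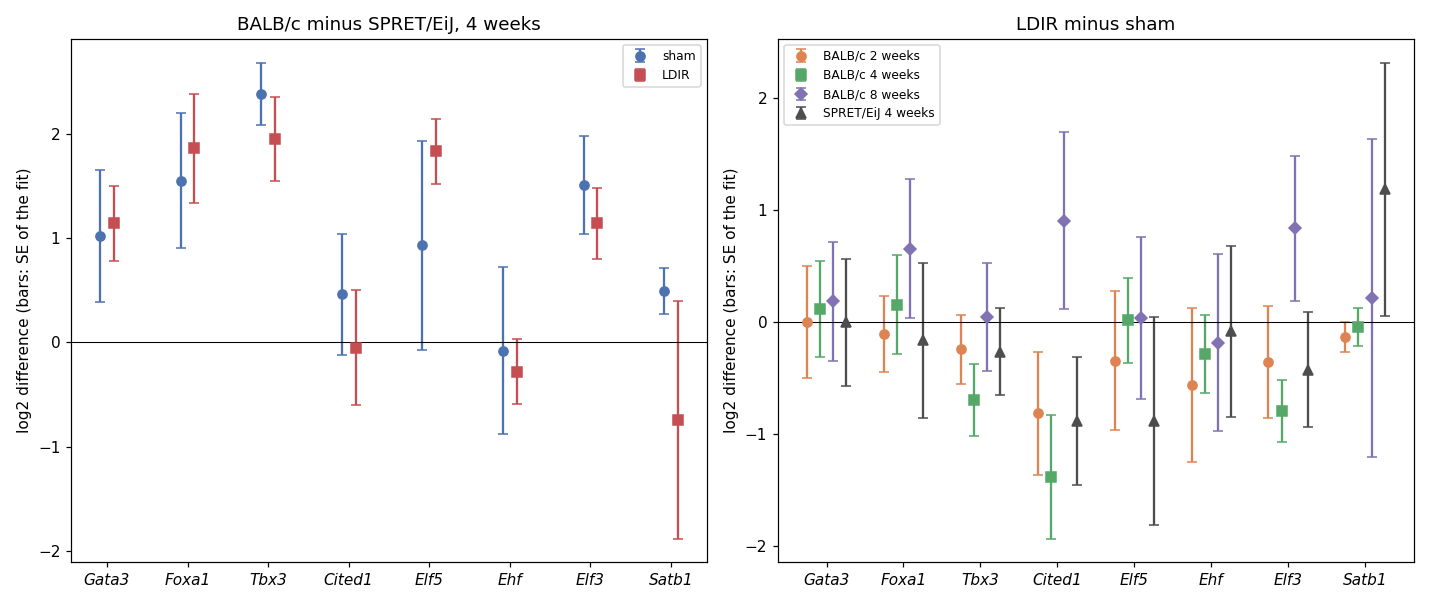
Differences in log2 level (vertical axis) for each factor (horizontal axis), with bars giving the SE of the limma fit on 3 against 3 arrays. Left, BALB/c minus SPRET/EiJ at 4 weeks in sham (blue) and irradiated (red) tissue, with Tbx3 at 2.38 and 1.95. Right, LDIR minus sham in the 4 pairs of groups, where Cited1 runs from -1.38 at 4 weeks to 0.91 at 8 weeks in BALB/c.

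After LDIR in BALB/c, Cited1 and Elf3 fell at 4 weeks by the methods' thresholds for radiation, an unadjusted p under 0.05 and a change over 1.5-fold. Cited1 was 3.55 ± 0.53 (SD, n = 3) after LDIR and 4.93 ± 1.04 in sham, or 2.61-fold lower (difference -1.38, SE 0.55, unadjusted p = 0.0427, adjusted p = 0.775 with limma). Elf3 was -1.59 ± 0.41 and -0.80 ± 0.34, or 1.73-fold lower (difference -0.79, SE 0.28, unadjusted p = 0.0279, adjusted p = 0.775). These are 2 of 8 factors, against 4.83% of all probes in either direction and 1.44% lower. No probe passed the adjusted threshold in any comparison of LDIR with sham.

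In both genes 1 sham mouse lay within the range of the irradiated mice, mouse A of each, and for none of the 8 factors were the groups apart, against 12.6% of all probes. Tbx3 differed by -0.69 (SE 0.32, unadjusted p = 0.0700 with limma). Gata3, Foxa1 and Elf5, with 0.12 (SE 0.43), 0.16 (SE 0.44) and 0.02 (SE 0.38), had differences smaller than their SE. Within slide 2, which held all 3 irradiated mice and sham mouse C, Cited1 differed by -2.05 and Elf3 by -1.08. Both calls were lost without sham B, sham C, LDIR B or LDIR C, and Cited1 also without LDIR A, leaving -1.05 to -1.54 for Cited1 and -0.64 to -0.74 for Elf3 where lost.

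No luminal marker passed at 4 weeks, 6 of the 10 were above 0 and their median was 0.17. The summed level was 7.23 to 8.57 after LDIR and 7.24 to 8.27 in sham. Of 10 basal markers, the keratins Krt5 (-0.73, SE 0.29) and Krt14 (-0.93, SE 0.30) fell by the same thresholds, and the summed basal level was 5.45 to 5.89 after LDIR and 5.80 to 6.10 in sham. Of 4 macrophage markers, Emr1 (0.72, SE 0.27) and Cd68 (0.81, SE 0.22) rose, and their summed level was 6.06 to 6.37 after LDIR and 5.39 to 6.05 in sham, without overlap. Of 3 brown adipocyte markers, Cidea fell (-1.88, SE 0.55), and their summed level was 2.81 to 4.41 after LDIR and 4.88 to 6.37 in sham, again without overlap. The part of these cell types in the levels of Cited1 and Elf3 was not tested. Of 8 milk genes, which Elf5 is known to activate, Csn1s1 and Csn2 passed upward with adjusted p = 0.775 from limma. Csn1s1 was well above background on 1 of 3 sham arrays and Csn2 on 0, so no size is given for either.

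At 2 weeks none of the 8 factors passed the thresholds with limma, against 3.05% of all probes, and none had an unadjusted p under 0.05, against 5.03%. Cited1 was 3.24, 3.85 and 4.31 after LDIR and 5.62, 3.57 and 4.65 in sham, a difference of -0.81 (SE 0.55), with overlap. The other differences ran from -0.56 (SE 0.69), for Ehf, to 0.00 (SE 0.50), for Gata3. Satb1 had no overlap, as 11.7% of all probes, though it differed by no more than -0.13 (SE 0.13). The median was -0.29 against -0.02 over all probes. The labels do not say that a replicate letter marks a pair. The values given here are from a fit without pairs. With the replicate letters as a block, an alternative run in every comparison, no call changed at this time. Without sham mouse B, Cited1 differed by -1.34 (SE 0.43, unadjusted p = 0.0238, adjusted p = 0.950 with limma).

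At 8 weeks none passed either, against 1.92% of all probes, with none at an unadjusted p under 0.05 in limma, against 1.97%, and an adjusted p of 1 for all 8. Cited1 was 5.25, 3.98 and 5.99 after LDIR and 3.34, 5.59 and 3.56 in sham, a difference of 0.91 (SE 0.79). Elf3 was 0.17, -1.68 and -0.20 after LDIR and -2.32, -0.57 and -1.34 in sham, a difference of 0.84 (SE 0.65). The ranges overlapped for all 8, and 4.96% of all probes had none. The differences of the others ran from -0.18 (SE 0.79), for Ehf, to 0.66 (SE 0.62), for Foxa1. Without sham mouse A and irradiated mouse B, which had the high lymphocyte markers, Cited1 differed by 1.05 (SE 0.77) and Elf3 by 0.94 (SE 0.34, unadjusted p = 0.0503 with limma).

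The response of Cited1 at 8 weeks exceeded that at 4 weeks by 2.29 (SE 1.03, unadjusted p = 0.0499, adjusted p = 0.986 with limma), and that of Elf3 by 1.63 (SE 0.75, unadjusted p = 0.0550). Over the 3 times together, with week as a block, none of the 8 passed with limma, against 1.16% of all probes, and none had an unadjusted p under 0.05, against 3.34%. The largest were -0.43 (SE 0.45) for Cited1, -0.34 (SE 0.39) for Ehf and -0.29 (SE 0.23) for Tbx3.

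In SPRET/EiJ at 4 weeks none passed, against 2.21% of all probes, and none had an unadjusted p under 0.05 in limma, against 2.22%. Cited1 differed by -0.88 (SE 0.57), Elf5 by -0.88 (SE 0.93), Elf3 by -0.42 (SE 0.51), Tbx3 by -0.26 (SE 0.39) and Foxa1 by -0.16 (SE 0.69). Gata3 had equal means. Satb1 differed by 1.19 (SE 1.13), and by -0.26 (SE 0.26) without irradiated mouse A. The ranges of all 8 overlapped, against 5.87% of all probes without overlap. This outcome changed for several factors without sham mouse B. Gata3 then differed by -0.69, Elf5 by -1.93, Ehf by -1.01 and Elf3 by -0.95, each past the unadjusted thresholds with an adjusted p of 1 from limma. The 2.21% of all probes belongs to the fit with sham mouse B kept, and the share without it is not given here. On the array of sham mouse B the summed luminal marker level was 4.69, the lowest of all 24.

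With time in sham BALB/c, Tbx3 fell between 4 and 8 weeks, from 3.25 ± 0.24 (SD, n = 3) to 2.19 ± 0.63, or 2.09-fold (difference -1.06, SE 0.37, unadjusted p = 0.0293, adjusted p = 0.294 with limma). The mice had 2.97, 3.43 and 3.35 at 4 weeks and 1.48, 2.39 and 2.70 at 8 weeks, without overlap. It was the only factor of 8 to pass the unadjusted thresholds or to be without overlap, against 13.7% and 23.4% of all probes. Elf5 differed by 0.90 (SE 0.68), Ehf by 0.85 (SE 0.69) and Satb1 by 1.56 (SE 1.06), or by 0.29 (SE 0.23) without 8-week sham A. The Tbx3 call was lost without 4-week sham B (-0.97) or C (-1.01) and with slide as a block (-1.16, SE 0.58). Without 8-week sham A, Elf5 (1.46) and Ehf (1.48) passed the unadjusted thresholds as well.

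All 5 skeletal muscle markers passed the same thresholds upward between these sham groups, 1 of them (Mylpf) not well above background on any 4-week sham array, from a summed level of 0.25 to 4.63 at 4 weeks to 5.20 to 7.23 at 8 weeks. Of 6 white adipocyte markers 5 fell (median -0.90), from 10.92 to 11.31 down to 9.78 to 10.37. The brown adipocyte markers Cidea (-2.45, SE 0.65) and Ppargc1a (-2.40, SE 0.28) and the endothelial Kdr (-1.25, SE 0.24) fell. Of the 3 endothelial markers 1 was above 0, and their median was -0.41. The macrophage markers Cd68 (0.90, SE 0.24) and Csf1r (0.98, SE 0.34) and the basal Mylk (1.32, SE 0.40) rose. Luminal markers gave no call (median 0.34). The part of this tissue makeup in the level of Tbx3 was not tested. Between 2 and 4 weeks none of the 8 factors passed with limma, against 3.04% of all probes, and none had an unadjusted p under 0.05, against 3.81%. All ranges overlapped, whereas 8.91% of all probes had no overlap. Ehf (1.04) and Elf3 passed the unadjusted thresholds without 2-week sham A.

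Other transcription factors of the mammary epithelium, a list of 21, were read by the same rules. In sham tissue none passed the strain thresholds, against 8.89% of all probes. After adjustment Tfcp2l1, a grainyhead-type factor of secretory epithelia (2.58, SE 0.62, adjusted p = 0.0327 with limma), Spdef (2.09, SE 0.56), an ETS factor of secretory cells, and Foxp1 (0.75, SE 0.16) were higher in BALB/c. These are 3 of 21, against 18.8% of all probes, and 16 of 21 were above 0 (median 0.71). In irradiated tissue 3 of 21 were higher after adjustment, against 11.1% of all probes in either direction, and they included Tfcp2l1 (1.63, SE 0.33) and Tfap2c (1.80, SE 0.42), an AP-2 factor of luminal cells, and again 16 of 21 were above 0 (median 0.41).

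After LDIR in BALB/c, the estrogen receptor Esr1 fell at 2 weeks (-0.70, SE 0.19, unadjusted p = 0.00993, adjusted p = 0.869 with limma), the only one of the 21 to pass, against 3.05% of all probes, with 1 of 21 above 0 and a median of -0.32. At 4 weeks only Tfcp2l1 fell (-0.88, SE 0.30, unadjusted p = 0.0243), with 2 of 21 above 0 and a median of -0.29, against 0.02 over all probes, of which 4.83% passed. At 8 weeks none of the 21 passed, and 12 were above 0. Over the 3 times together Myb fell (-0.84, SE 0.34). In SPRET/EiJ none passed, and 9 were above 0. Between 4 and 8 weeks in sham BALB/c, Esr1 (-1.36, SE 0.40) and Notch1 (-2.25, SE 0.53) fell, and Id2 (1.28, SE 0.49) and Bcl11a (2.01, SE 0.55) rose, so 4 of 21 passed against 13.7% of all probes.

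Genes of the response to estrogen, progesterone and prolactin, a list of 5, fell in part at 8 weeks after LDIR. Areg, the epidermal growth factor receptor ligand amphiregulin (-2.23, SE 0.51), and Wnt4, a ligand induced by progesterone (-1.15, SE 0.38), passed the unadjusted thresholds with an adjusted p of 1 from limma, against 1.92% of all probes, and 0 of 5 were above 0. None of the 5 passed at 2 or 4 weeks. Over the 3 times together Areg (-1.13, SE 0.44), Wnt4 (-0.80, SE 0.26) and Tnfsf11, which some arrays did not measure above background, passed downward. These are 3 of 5, against 1.16% of all probes in either direction. The list was chosen with earlier results of these data known. The paper had already reported amphiregulin and WNT4 as lower at 8 weeks from the same arrays. The counts of this list after LDIR are therefore no independent support for a change. Between strains in sham tissue Tnfsf11 and the prolactin receptor Prlr (1.77, SE 0.33, adjusted p = 0.0138 with limma) were higher in BALB/c. After adjustment 2 of the 5 were higher, against 18.8% of all probes in either direction. No SPRET/EiJ sham array measured Tnfsf11 well above background.

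Relatives of the 8 factors within their gene families were read likewise. Of the 17 listed, 12 were well above background on every array. Between strains in sham tissue Gata6 (-1.27, SE 0.31, adjusted p = 0.0340 with limma) and Tbx5 (-1.64, SE 0.38, adjusted p = 0.0292) were lower in BALB/c. These are 2 of 17 after adjustment, against 18.8% of all probes in either direction. Of the 17, 9 were above 0 (median 0.11). After LDIR in SPRET/EiJ, Tbx2 (-0.85, SE 0.33) and Tbx5 (-0.88, SE 0.27) fell by the unadjusted thresholds. Of the 17, 1 other relative passed upward, and 2.21% of all probes passed in either direction. The interaction of strain and LDIR was 1.33 (SE 0.43) for Tbx2 and 1.70 (SE 0.50) for Tbx5, both past the unadjusted thresholds, against 3.59% of all probes, with adjusted p = 0.955 from limma. In BALB/c at 2 weeks after LDIR, Gata4 (0.66, SE 0.23), well above background on 5 of the 6 arrays, passed upward and Foxa2, well above background on 1 of the 6 arrays, passed downward, and none of the 17 passed at 4 and 8 weeks. In sham BALB/c, Gata4, Foxa3 and Foxa2 passed between 2 and 4 weeks and Gata1 between 4 and 8 weeks, and none of these 4 was well above background on all 6 arrays of that comparison.

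The factors other than Satb1 varied together from mouse to mouse. After the mean of each group was removed, the 21 pairs among Gata3, Foxa1, Tbx3, Cited1, Elf5, Ehf and Elf3 had Pearson correlations from 0.49 to 0.93 over 24 arrays, with a median of 0.76. Elf5 and Ehf were at 0.93, Gata3 and Ehf at 0.91, and Elf5 and Elf3 at 0.90. Cited1 was the loosest, with 0.49 to Tbx3 and 0.76 to Elf3. Within BALB/c alone (18 arrays) the range was 0.40 to 0.94 (median 0.80). Without the 3 arrays with high lymphocyte markers and SPRET/EiJ sham B (20 arrays) it was 0.09 to 0.87 (median 0.64). The points share array, depth of signal and the makeup of the gland.

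The same 7 followed the mean of the 10 luminal markers, with correlations of 0.91 for Gata3, 0.88 for Elf3, 0.87 for Tbx3, 0.86 for Elf5, 0.85 for Ehf, 0.82 for Foxa1 and 0.57 for Cited1. With white adipocyte markers they lay between -0.12 and 0.39. Satb1, taken over the 21 arrays without high lymphocyte markers and with group means left in, correlated at 0.42 (Ehf) to 0.82 (Elf3) with the 7 other factors. It was at 0.84 with basal markers, 0.78 with luminal, 0.60 with skeletal muscle and 0.59 with T lymphocyte markers, and at -0.73 with brown adipocyte markers. With group means removed, as for the other factors, its 7 correlations with them ran from -0.61 to -0.29 over all 24 arrays and from 0.12 to 0.65 over those 21, so the sign rests on the 3 arrays.

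**Figure D4:**
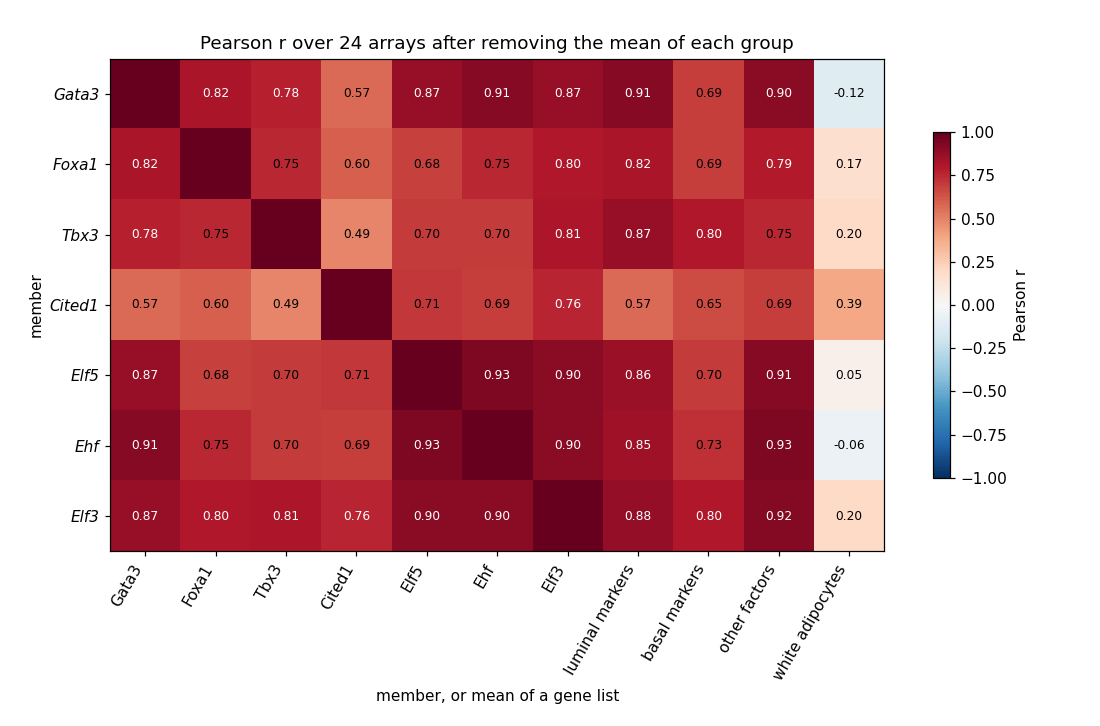
Pearson correlation over 24 arrays after the mean of each group was removed, between 7 factors (rows) and the same factors or the mean of a gene list (columns). Colour runs from blue (-1) to red (1), and each cell gives its value. Factor pairs lie between 0.49 and 0.93, and white adipocyte markers between -0.12 and 0.39.

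Among 15747 genes detected above background on every array, the most like each factor was taken as the highest Pearson correlation over 24 arrays, with group means left in. Gata3 was nearest to Spint1, a protease inhibitor of epithelial membranes (0.943), and to Rhpn2 (0.943). Foxa1 was nearest to Cmtm8 (0.926), and Tbx3 to Tead2 (0.942), a partner of the Hippo pathway's coactivators. With group means removed, Foxa1 and Cmtm8 were at 0.93, and Tbx3 and Tead2 at 0.85. The next nearest to Tbx3, Pcdhb20 (0.940) and Stc2 (0.936), were then at 0.66 and 0.78. Elf5 was nearest to Aldoc (0.940), Tfap2c (0.938) and Lcn2 (0.934), an iron-siderophore carrier of secretory epithelia. Ehf was nearest to Mfsd6 (0.917) and Kcnk5 (0.908), followed by Vdr, the vitamin D receptor (0.902). Elf3 was nearest to Tmem184a (0.953) and Sox9 (0.939), a progenitor factor. Cited1 had no like gene above 0.802. Satb1 was nearest to Nfkbid (0.983), a regulator of NF-kB known from lymphocytes, and its value rests on the 3 arrays that stand apart.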

How the data were processed

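The intensity values that the authors deposited came from the scanner software, which per the file headers subtracts background and detrends each array. They also deposited log2 values normalized to the 75th percentile and centred on each probe, which were used as an alternative. Here log2 intensities were averaged over a probe's spots, then scaled by subtracting each array's own 75th percentile over all probes. Of 59305 spots that are no controls, 3777 outlier spots over the 24 arrays were left out and 0 were saturated.

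Every comparison was fitted to all probes with limma 3.58.1 in R 4.3.3, on its own arrays, with Benjamini-Hochberg adjustment, and called at the methods' thresholds. An adjusted p under 0.05 was counted beside them. The fit was tested on simulated data. Figures were drawn with matplotlib 3.10.9. A gene is given by its brightest probe. Named list genes passed a threshold, though not all that passed are named and some are not reported here, and the 3 genes most like a factor were found by correlation. The members and lists were chosen with earlier results of these data known.

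Groups share replicate letters. At 2 weeks mice of the same letter deviated together (correlations of deviations 0.141, 0.442 and 0.101). The comparisons given were nevertheless fitted without pairs, and the letters entered as a block only among the alternatives. Alternatives were the log2 values of the authors, normexp (offset 50), quantile normalization, the mean over probes, detected probes only, outlier spots kept, the methods' t-test, all arrays in one fit, replicate or slide as a block, luminal markers subtracted and each array left out. An exact permutation test of 3 against 3 cannot give a two-sided p below 0.1, so none was used. Leaving out the 3 arrays with high T lymphocyte markers (summed level above 6) was chosen after seeing the data.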

Additional observations from a re-analysis of the deposited data

Results flagged for a closer look

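The response of Cited1 to LDIR in BALB/c had opposite signs at 4 and 8 weeks. LDIR minus sham at 8 weeks minus the same at 4 weeks was 2.29 on the log2 scale (SE 1.03, unadjusted p = 0.0499, adjusted p = 0.986 with limma), and it was singled out because the difference between times has an unadjusted p under 0.05. It was 1 of 24 such differences tested over the 8 factors and 3 pairs of times. Over the alternatives, the 4-week response ran from -2.05 to -1.05 and lost its call in 10 of 18. The 8-week response ran from 0.45 to 1.63 and stayed without a call in all 19. The difference between times was not run under these alternatives. Treatment was spread unevenly over slides at both times, and the part of slide in this difference was not tested. Irradiated mice B and C of 8 weeks were on slide 3, and all sham mice of that time on slide 2.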

How the results depend on the processing

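Over the alternatives, 1547 of 1608 values of single factors kept their side of the threshold, 43 lost a call, 18 gained one and 0 called values changed sign, while 140 uncalled values did. The numbers below count factors past the unadjusted thresholds. The shares of all probes that passed under the same alternatives are not given here, so these counts have no background beside them. The strain difference in sham tissue fell from 1 (Tbx3) to 0 with the methods' t-test, with slide in a fit of all 24 arrays, with the replicate block (Tbx3 2.38, unadjusted p = 0.00154, adjusted p = 0.0217 with limma) and with luminal markers subtracted. In irradiated tissue it went from 1 (Elf5) to 2 with normexp (Elf5 and Tbx3) and to 0 with the t-test, slide in a fit of all arrays, the replicate block and without the arrays with high T lymphocyte markers. It stayed at 1, with Tbx3 in place of Elf5, when all 24 arrays shared 1 fit, and with Satb1 when luminal markers were subtracted. The response at 2 weeks went from 0 to 1 (Cited1) with normexp. That at 4 weeks went from 2 to 1 with quantile normalization (Elf3) and with luminal markers subtracted (Cited1), and to 0 with the t-test, all arrays in 1 fit, slide in that fit and the replicate block (Cited1 -1.38, unadjusted p = 0.0818 with limma). With normexp it stayed at 2, with Tbx3 in place of Elf3. Sham tissue at 8 against 4 weeks went from 1 to 0 with the t-test and slide as a block in either fit, and to 3 without the arrays with high T lymphocyte markers. The replicate block changed no other count, and the causes were not tested.

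Leaving out each array in turn gave 0 to 1 in sham strains (0 without BALB/c sham B or C), 0 to 0 in irradiated strains, 0 to 1 at 2 weeks (1 without sham B) and 0 to 2 at 4 weeks. It gave 0 to 4 in SPRET/EiJ and 0 to 1 in the interaction, both highest without SPRET/EiJ sham B. In sham BALB/c it gave 0 to 2 at 4 against 2 weeks (2 without 2-week sham A) and 0 to 3 at 8 against 4 weeks (3 without 8-week sham A, 0 without 4-week sham B or C). The counts at 8 weeks and over the 3 times stayed at 0. Slide as a block on the comparison's own arrays was not run for irradiated strains, 2 weeks and SPRET/EiJ.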
